A study of Homo sapiens with 10 samples.

Results

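The transport machinery between the endoplasmic reticulum (ER) and the Golgi was followed in HepG2 cells, a human hepatoma line, that received regular growth medium (control) or medium with 2 µg/ml tunicamycin, an inhibitor of N-linked glycosylation, for 17 h. Messenger RNA was counted from its 3′ ends in 5 libraries per condition, from experiments run on separate days. The genes were taken from a list of 45 symbols that names coat subunits, cargo receptors, p24 proteins, KDEL receptors, ARF proteins, SNAREs and tethers, and a row of the count table was used when its gene name was a listed symbol. All libraries came from 1 established line, so the replicates are cultures and not donors. Of the 45, 44 were found among 32738 rows and 43 passed the filter on low counts, which 12733 genes passed in all. SEC22B was not matched and is not analysed here. COPZ2 had 1 count in the 5 control libraries together and 3 in the 5 tunicamycin libraries, and was not tested.

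Proteins made in the ER leave it in vesicles coated with COPII. The GTPase SAR1 starts the coat, SEC23 and SEC24 form its inner layer and select cargo, and SEC13 and SEC31 form the outer cage. Vesicles coated with COPI, which ARF GTPases recruit, return escaped ER proteins and receptors from the Golgi, and KDEL receptors bind the escaped chaperones for this trip. SNARE proteins then fuse the vesicles with their target. In liver cells this route carries plasma proteins in bulk, and many of its genes are known targets of the unfolded protein response, the transcription program that stressed ER sets off.

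Library totals were 4242538 to 4888292 counts in control and 2234682 to 5029864 in tunicamycin, where replicate 5 was the shallowest and replicate 4, with 3567316 counts, the next. A normalized count is a gene's count over its library's TMM-scaled size, times the mean of these sizes. It is relative to that scaled size and is not a plain share of the library's counts. In bulk RNA, fewer cells with a transcript and less of it per cell cannot be told apart. HSPA5, the ER chaperone BiP, rose from 8445 ± 559 to 66202 ± 4410.5 (normalized counts, here and throughout as mean ± SD over the 5 libraries of a condition, while SE is the standard error of the log2 difference). HSP90B1, DNAJB9 and DDIT3, which also respond to ER stress, rose as well. Each of 6 liver markers was tested, with a summed level of 30669 to 49741 normalized counts in control and 28402 to 35856 in tunicamycin, and 4 of the 6 fell. Their part in the results was not tested. Markers of blood, stromal and endothelial cells were at or near 0, with a summed level of at most 4.72 in any library. PECAM1, a listed endothelial marker, had no row in the count table, so VWF alone stood for endothelial cells.

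Most of the transport genes were higher after tunicamycin. The quasi-likelihood test of edgeR, with an adjusted p of 0.05 as its threshold, called 30 of the 43 tested genes higher and 2 lower, which is 69.8% and 4.65% of them, and 11 were not called. Over all 12733 tested genes, 17.6% were called higher and 16.6% lower. The list was chosen with earlier results of these data known, so the contrast is a description and not a test. The median log2 fold change of the 43 was 0.45, while that of all tested genes was -0.0034. In 27 of the 43, every tunicamycin library lay above every control library, a pattern seen in 11.7% of tested genes, and in 2 every tunicamycin library lay below, seen in 11.9%. Control and tunicamycin libraries with the same number were taken as replicate pairs from the same day, which the labels do not state for each library. The median over the 43 genes was alike in the 5 replicate pairs, between 0.49 and 0.53 on the log2 scale. Their summed level was 29195 to 31331 normalized counts in control and 39953 to 40868 in tunicamycin. In 31 genes all 5 replicate pairs went up, and in 4 all 5 went down. How many of all tested genes did so was not counted. When total counts alone set the scale, 26 rose and 4 fell, and the share of all called genes that were higher was 40.8% in place of 51.4%. The plot of fold changes by role shows that each role except the KDEL receptors had more members that rose than members that did not.

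**Figure D1:**
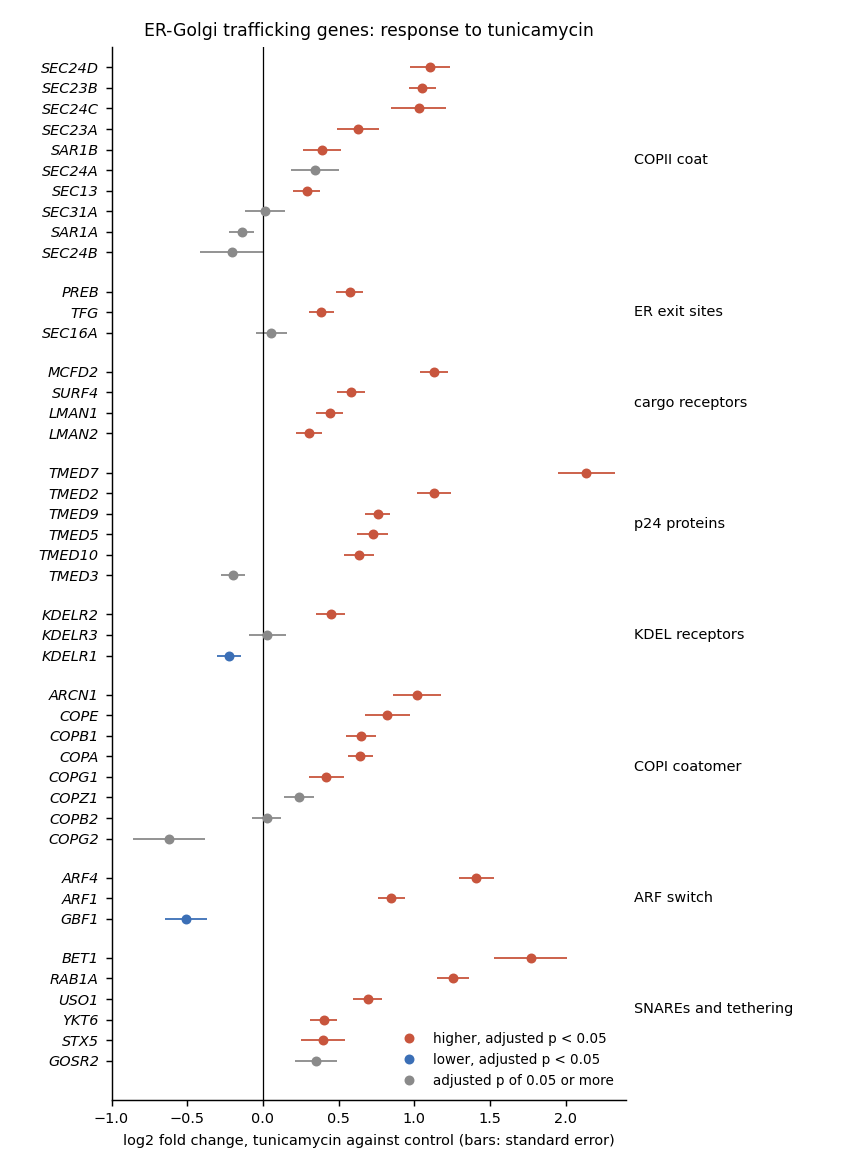
Log2 fold change of each of the 43 tested genes (x axis, tunicamycin against control, bars: standard error) by role, with genes called higher in red, lower in blue and not called in grey. TMED7 (2.14) and BET1 (1.77) lie farthest to the right, and KDELR1 (-0.22) and GBF1 (-0.51) are the 2 called lower.

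The promoters of these genes were read for short motifs that factors of the stress response bind. RefSeq's promoter table (GRCh38.p14, 250 bases before to 50 after the start) held 38 of the 44 genes, all but ARF4, KDELR2, RAB1A, SEC24D, TMED9 and USO1. The core of the unfolded protein response element, TGACGTGG or CCACGTCA on the other strand, to which XBP1 and ATF6 bind, occurred in 10 of the 38 promoters (26.3%), in 0.795% of all 27305 promoters of the table and in 0.953% of the 8917 promoters matched to tested genes. Among the 10 carriers, ARF1, COPA, COPB1, SEC23A and STX5 rose, GBF1 fell, and COPB2, KDELR3, SEC16A and SEC24A were not called. The call of STX5 was lost in DESeq2 and in other settings given below. Of the tested genes whose promoter lacked the core, 19 rose, 1 fell and 7 were not called. The difference between carriers and the others was not tested. Each copy is shown as a 30-base stretch on the strand where the core reads TGACGTGG, with the core in capitals, because these are the letters the 10 genes share:
ARF1: cccggaggcgcTGACGTGGccgccgtcaga
COPA: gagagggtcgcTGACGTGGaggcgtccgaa
COPB1: gagtccttggcTGACGTGGaagggggtggg
COPB2: actaagggccgTGACGTGGtgccgctgagc
COPB2: gtcagactgacTGACGTGGaacttccggga
GBF1: tgtcagctcacTGACGTGGtaactagcctc
KDELR3: tggccgggcggTGACGTGGccagggcggcc
SEC16A: ttcagtccggcTGACGTGGcaccagggcca
SEC23A: tcccctcctctTGACGTGGcagaggcggcg
SEC24A: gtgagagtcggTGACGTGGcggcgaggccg
STX5: ttacgtgtaggTGACGTGGccgcttccagt

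In the order shown, these stretches lie at chr1:228082681-228082710 (+ strand), chr1:160343227-160343256 (- strand), chr11:14499841-14499870 (+ strand), chr3:139389825-139389854 (+ strand), chr3:139389632-139389661 (+ strand), chr10:102245526-102245555 (- strand), chr22:38468039-38468068 (- strand), chr9:136484707-136484736 (+ strand), chr14:39103221-39103250 (- strand), chr5:134648595-134648624 (+ strand) and chr11:62832049-62832078 (- strand). COPB2 has a pair of copies, 163 bases before its start and from base 31 after it. The core starts 16 bases before the start of ARF1 and of STX5, 46 bases before that of KDELR3, 48 before that of COPB1, 4 before that of SEC23A, where it spans the start, and 179 before that of SEC24A. In COPA, GBF1 and SEC16A it lies just after the start, from base 6, 6 and 16. Each start is that of the gene's first entry in the promoter table. For some genes it differs from the gene start in GENCODE. Examples are SEC16A and SEC23A, which start there at 136483759 and 39109646 on the minus strand. The 250 bases before the starts of ARF1 and KDELR3 are given in full, since the first gene rose and the second was not called although both hold the core (in capitals):
ARF1: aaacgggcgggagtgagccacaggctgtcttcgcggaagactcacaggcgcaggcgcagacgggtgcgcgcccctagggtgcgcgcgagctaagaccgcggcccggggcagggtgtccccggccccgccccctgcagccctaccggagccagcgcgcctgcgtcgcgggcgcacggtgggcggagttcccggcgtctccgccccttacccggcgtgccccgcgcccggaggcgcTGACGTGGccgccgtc
KDELR3: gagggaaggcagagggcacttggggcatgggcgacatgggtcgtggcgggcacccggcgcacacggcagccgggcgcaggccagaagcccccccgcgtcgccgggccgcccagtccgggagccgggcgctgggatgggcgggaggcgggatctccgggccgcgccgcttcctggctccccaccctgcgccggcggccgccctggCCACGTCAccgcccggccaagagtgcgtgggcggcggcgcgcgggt

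These run from 228082458 to 228082707 on the plus strand of chromosome 1 and from 38467846 to 38468095 on the plus strand of chromosome 22. The ER stress element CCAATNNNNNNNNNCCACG was in 0 of the 38 promoters and in 0.0806% of all, and the second form of that element (ATTGG, any base, CCACG) in 0 and in 0.0549%. The core of the amino acid response element, TGATGCAA, was in 0 of the 38 and in 0.923% of all. The site of AP-1 factors, TGACTCA or TGAGTCA, was in 1 of the 38, that of TMED10, against 4.92% of all promoters. Each motif was searched on both strands. The core shares the letters CCACG with both forms of the stress element, and none of the 38 promoters held more than 1 kind of motif.

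Of 10 COPII coat genes 6 rose, 0 fell and 4 were not called. The cargo adaptors SEC24C and SEC24D rose, SEC24A and SEC24B were not called. SEC24D, a cargo adaptor, stood at 93, 91, 80.5, 78.8 and 62 normalized counts in control replicates 1 to 5 and at 201, 159.8, 153, 187 and 172 in tunicamycin replicates 1 to 5. All 5 tunicamycin libraries were above the 5 control libraries, and the gene was 2.15-fold higher (log2 fold change 1.10, SE 0.13, adjusted p = 2.89e-06). SEC24C, its closest relative, went from 61.1, 64.2, 93.6, 92.3 and 70.1 in control to 112, 119, 161, 219.8 and 178 in tunicamycin, again without overlap (log2 fold change 1.03, adjusted p = 0.000237). SEC24A was at 52.5, 49, 53.4, 50.2 and 53.9 in control and 57.4, 83.4, 52, 67.3 and 70.6 in tunicamycin, and SEC24B at 29.3, 49.9, 66.5, 43 and 42.7 in control and 38.9, 45.6, 44.4, 30.2 and 40.4 in tunicamycin. These 2 adaptors, which form the other subfamily, overlapped between the conditions and were not called (log2 fold changes 0.34 and -0.20, adjusted p = 0.101 and 0.481). The 4 genes lie on chromosomes 5, 4, 10 and 4.

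SEC23B, the partner of SEC24 in the inner coat, rose from 275 ± 25.6 to 569 ± 26.7 normalized counts (log2 fold change 1.05), and SEC23A from 225 ± 59.8 to 348 ± 27 (0.63). The control libraries of SEC23A were spread from 167 to 314, and the highest of them passed the lowest tunicamycin library. Of the starting GTPases, SAR1B had 140.3, 151, 136, 139.8 and 121 in control and 145, 188, 157, 217 and 204 in tunicamycin. Those of its relative SAR1A were 400.2, 407, 402, 394 and 441 in control and 388, 374, 340.1, 390.2 and 361 in tunicamycin. SAR1B rose in edgeR's test (log2 fold change 0.39, adjusted p = 0.0202), but lost the call without control replicate 5 (0.0544), tunicamycin replicate 4 (0.063) or tunicamycin replicate 5 (0.0518), and when total counts alone set the scale (0.0621). All 5 tunicamycin libraries of SAR1A lay below the control libraries, although the fit did not call it (log2 fold change -0.14, adjusted p = 0.2).

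Of the outer cage, SEC13 rose and SEC31A was not called. SEC31A was at 598, 685, 574, 511 and 537 normalized counts in control and at 770.3, 632, 567, 537 and 404 in tunicamycin, a log2 difference of 0.013 (SE 0.13, adjusted p = 0.951). Its tunicamycin libraries reached both above and below all control libraries. SEC13, which also serves in the nuclear pore, rose from 426 ± 8.29 to 519.8 ± 58.9 (log2 fold change 0.29, adjusted p = 0.0161). Without tunicamycin replicate 1, which held 625, its adjusted p in edgeR's test was 0.0587, and when total counts alone set the scale 0.128.

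Of 3 genes that set up ER exit sites, PREB and TFG rose. PREB, the exchange factor that loads SAR1 with GTP (also called SEC12), was at 584, 541, 495, 504 and 545 in control and 884, 722, 870.0, 782 and 704 in tunicamycin (log2 fold change 0.57, SE 0.09, adjusted p = 6.33e-05). The conditions did not overlap. TFG, which organizes exit sites, went from 445 ± 33.9 to 582 ± 30 (log2 fold change 0.39). SEC16A, the scaffold of the exit site, stood at 208, 211, 229, 201 and 222 in control and at 204, 213, 197, 261 and 244 in tunicamycin. These ranges overlapped (0.054 on the log2 scale, SE 0.10, adjusted p = 0.721).

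All 4 cargo receptors rose, each without overlap between the conditions. MCFD2, the small calcium-binding partner with which LMAN1 carries coagulation factors, was at 932, 845, 1022, 1147 and 1022 normalized counts in control and 2081, 2311, 2254, 2202 and 2028 in tunicamycin, 2.19-fold higher (log2 fold change 1.13, SE 0.091, adjusted p = 1.96e-08). LMAN1, a lectin that binds mannose-rich N-glycans, rose from 4639.6 ± 107 to 6291 ± 707, or 0.44 on the log2 scale. The difference between these 2 partners was not tested. SURF4, the receptor of many soluble secreted proteins, had a log2 fold change of 0.58 (adjusted p = 6.57e-05). LMAN2, a second lectin of the route, changed least, with 949, 1106, 1006, 1191 and 1172 in control and 1336, 1234, 1419, 1423 and 1273 in tunicamycin (log2 fold change 0.30, adjusted p = 0.0112), and was not called when total counts alone set the scale (adjusted p = 0.0781 in edgeR's test).

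Among the p24 proteins, membrane proteins that travel in both kinds of vesicle and take part in sorting GPI-anchored cargo, 5 of 6 rose. TMED7 (ENSG00000134970, chromosome 5 from 115613210 to 115632992 on the minus strand, GRCh38) changed most of all 43 genes in the edgeR fit. It stood at 85.2, 128, 143, 137 and 141 normalized counts in control replicates 1 to 5 and at 362, 473, 464, 719.9 and 801 in tunicamycin replicates 1 to 5. Every tunicamycin library was above every control library, and replicates 4 and 5 of tunicamycin, which also had the lowest totals, were above the other 3. Tunicamycin raised it 4.4-fold (log2 fold change 2.14, SE 0.19, adjusted p = 7.8e-08), and the log2 fold change was 1.99 to 2.26 with each library left out and 2.11 after thinning all libraries to the smallest total. TMED2 rose from 409 ± 80.3 to 895 ± 42.8 (log2 fold change 1.13), TMED9 by 0.76 and TMED10 by 0.64 on that scale.

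TMED5 and TMED3 belong to the same subfamily as TMED7. TMED5 had 331, 332, 359.6, 382 and 398 in control and 518, 581, 520.5, 734 and 632 in tunicamycin, without overlap (log2 fold change 0.72, adjusted p = 2.56e-05). TMED3, by contrast, had 504, 487, 458, 509.8 and 494 in control and 400.3, 432, 414, 430.0 and 468 in tunicamycin, lower in each of the 5 replicate pairs. Its log2 fold change of -0.20 was not called (adjusted p = 0.0671). It was called when total counts alone set the scale (adjusted p = 0.0197), with the default minimums of the filter (adjusted p = 0.0488) and, just past the threshold, without tunicamycin replicate 5 (-0.23).

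The KDEL receptors were the only role in which no more members rose than fell, with 1 each and 1 not called. KDELR2 stood at 1004, 1014, 1160.1, 1335 and 1202 normalized counts in control and at 1310.0, 1579, 1541, 1649 and 1717 in tunicamycin, a rise of 0.45 on the log2 scale (SE 0.099, adjusted p = 0.00162). The highest control library was above the lowest tunicamycin library. KDELR1 had 8221, 7429, 6998, 7258 and 8508 in control and 6690.1, 6669, 6951, 6027 and 6549.6 in tunicamycin, so that all tunicamycin libraries were below all control libraries. It was called lower (log2 fold change -0.22, SE 0.082, adjusted p = 0.0405 in edgeR's quasi-likelihood test), but not without control replicates 1, 2 or 5 or tunicamycin replicates 2, 4 or 5, where the adjusted p was 0.0585 to 0.116. The same test also lost the call of KDELR1 with no filter on low counts (adjusted p = 0.0707) and after thinning to the smallest library (adjusted p = 0.0647). KDELR3, whose promoter is shown above, was at 93, 92.7, 98, 104 and 105 in control and at 105, 118, 89.7, 96.2 and 90.8 in tunicamycin. The conditions overlapped, and the log2 fold change was 0.03 (SE 0.12). The summed level of the 3 receptors was 8256 to 9815 in control and 7772 to 8581 in tunicamycin, while HSPA5, whose protein they retrieve, rose 7.84-fold.

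In the COPI coatomer 5 of 8 tested subunits rose and 3 were not called. ARCN1, the delta subunit, was at 123, 147, 122, 131 and 106 normalized counts in control and at 167, 260.0, 224, 345 and 293 in tunicamycin (log2 fold change 1.02, SE 0.16, adjusted p = 5.71e-05). The lowest tunicamycin library was still above the highest control library. COPE (epsilon), COPB1 (beta) and COPA (alpha) rose by 0.82, 0.65 and 0.64 on the log2 scale. COPB2, the beta prime subunit that pairs with COPA, had 446, 504, 482, 443 and 433 in control and 514, 481, 499.7, 374 and 476 in tunicamycin, which overlapped (0.025 on the log2 scale, SE 0.095, adjusted p = 0.862). COPZ1 (zeta) did not overlap between the conditions, from 199.6 ± 14.4 to 236 ± 17.9 and yet its log2 fold change of 0.24 was not called (adjusted p = 0.0664).

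The gamma subunit has a pair of genes. COPG1 had 233, 210.4, 164, 188 and 188 in control and 258, 254, 238, 320.1 and 246 in tunicamycin and rose (log2 fold change 0.42, adjusted p = 0.00801). COPG2 had 37.9, 31.2, 32.4, 33.2 and 34.6 in control and 17.7, 15.9, 34, 26.1 and 14.1 in tunicamycin, and 4 of its tunicamycin libraries lay below all control libraries. Its log2 fold change of -0.62 missed the threshold (SE 0.24, adjusted p = 0.0504). It passed with the replicate block in edgeR (-0.65, adjusted p = 0.0397), when total counts alone set the scale (adjusted p = 0.0255), with the default minimums of the filter (adjusted p = 0.0443) and without tunicamycin replicate 3 (-0.87, adjusted p = 0.0103). DESeq2 with the same block did not call it (adjusted p = 0.0973). COPG2 had few counts, and 228 of the last 500 bases of its transcript overlap MEST on the opposite strand.

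Of the ARF switch, ARF1 and ARF4 rose and GBF1, the gene of their exchange factor, fell. ARF3, a further Golgi ARF from the wider list, was at 359 ± 46.5 in control and 302 ± 21.7 in tunicamycin and was not called (-0.25 on the log2 scale, adjusted p = 0.0627). ARF4 went from 233, 288, 387, 322 and 343 normalized counts in control replicates 1 to 5 to 714, 808, 870.0, 897 and 894 in tunicamycin, 2.66-fold higher (log2 fold change 1.41, SE 0.12, adjusted p = 2.72e-08). ARF1, the GTPase that recruits coatomer, went from 646, 725, 789, 762 and 714 to 1229, 1204, 1268, 1458 and 1394, 1.8-fold higher (log2 fold change 0.85). Neither gene overlapped between the conditions. GBF1 (chromosome 10 from 102245371 to 102382899 on the plus strand, GRCh38), which loads ARF proteins with GTP at the Golgi, had 256, 206, 217, 180.1 and 189 in control and 196, 136, 133, 115 and 153 in tunicamycin. It was lower in each of the 5 replicate pairs (log2 fold change -0.51, SE 0.14, adjusted p = 0.00772), and its log2 fold change was -0.65 to -0.42 with each library left out, although tunicamycin replicate 1 reached into the control range.

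Of 6 tested SNARE and tethering genes 5 rose. BET1, a vesicle SNARE of the ER to Golgi step (chromosome 7 from 93962762 to 94004382 on the minus strand, GRCh38), was at 26.7, 8.92, 20.1, 24.2 and 28.5 normalized counts in control and at 52.4, 72.4, 79.3, 72.8 and 98.9 in tunicamycin, 3.4-fold higher (log2 fold change 1.77, SE 0.24, adjusted p = 1.4e-05). The gene had few counts in control, with as little as 8.92 normalized counts in replicate 2, and no overlap. RAB1A, the GTPase that directs tethering, rose from 517 ± 55.9 to 1236 ± 175 (2.38-fold), and USO1, the tether p115 that RAB1 recruits, by 0.69 on the log2 scale. YKT6, a SNARE held by lipid, had a log2 fold change of 0.40 (adjusted p = 0.0017). STX5 and GOSR2 are SNAREs of the Golgi side. STX5 was called higher (0.40, adjusted p = 0.0446 in edgeR's quasi-likelihood test), but in 8 of the 10 fits that left out a library, all but those without control replicate 1 or tunicamycin replicate 3, the adjusted p was 0.0536 to 0.105, and it was 0.0553 in DESeq2, 0.112 in DESeq2 with the replicate block, 0.0661 with no filter, 0.124 when total counts alone set the scale and 0.222 after thinning. GOSR2 stood at 139, 116, 80.5, 95 and 115 in control and at 130.1, 144, 156, 122 and 141 in tunicamycin and was not called (0.35, adjusted p = 0.0619), except with the replicate block in edgeR (adjusted p = 0.0407, against 0.104 with the block in DESeq2) and without control replicate 1 (adjusted p = 0.0137).

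**Figure D2:**
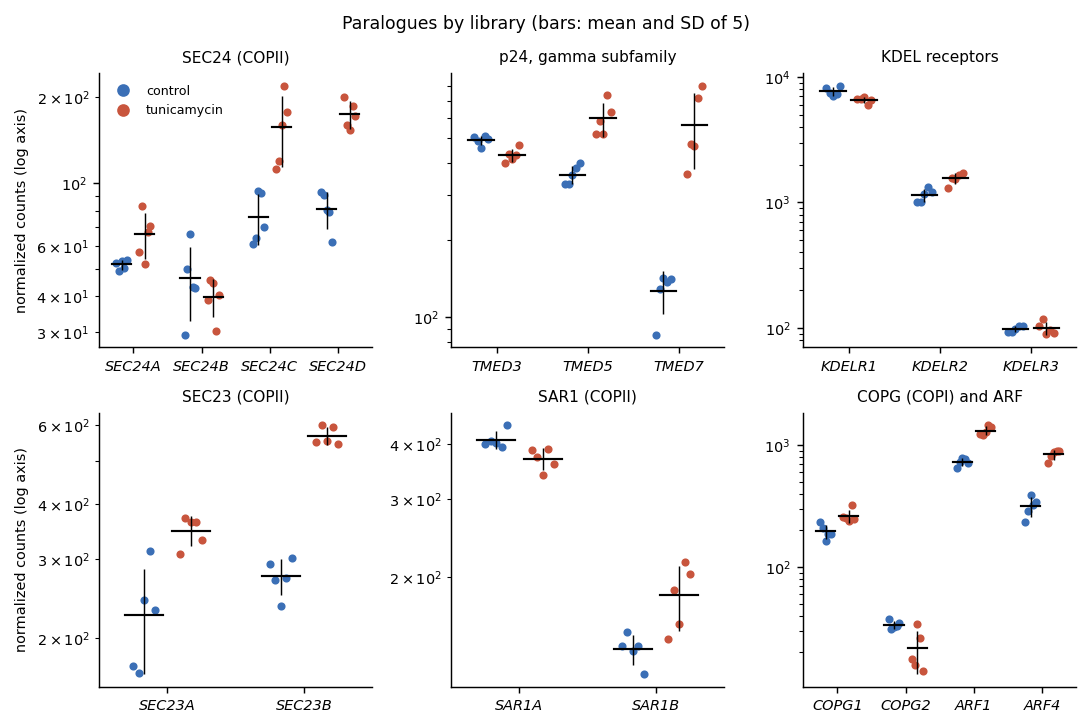
Normalized counts (log axis) of paralogous genes in each control (blue) and tunicamycin (red) library, with the mean and SD of 5 libraries as black bars. SEC24C, SEC24D, TMED7 and ARF4 separate fully between the conditions, while SEC24A, SEC24B and KDELR3 overlap.

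Paralogues were next compared within each library, where the ratio of 2 genes does not depend on how libraries are scaled. Of 18 listed pairs 17 had enough counts, and the difference in mean log2 ratio between the conditions was tested with a two-sided exact permutation test over the 10 libraries, whose smallest p for 5 against 5 is 0.00794. Benjamini-Hochberg adjustment ran over the 17 pairs. The ratio changed in 12 pairs. The SEC24 and TMED pairs share genes, as do the KDEL receptor pairs, so these are not 12 separate results. How often the ratio changed among other gene pairs was not measured. The permutation test does not use the pairing by replicate number. All 12 moved the same way in each of the 5 replicate pairs, as did 1 pair that was not called, but swaps within 5 pairs cannot give an exact p below 0.0625, so a paired test could call none of them. Differences are given with their standard error, n = 5 each.

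TMED3 lost most against TMED7, with a change of -2.30 ± 0.24 in the log2 ratio (exact p = 0.00794, adjusted p = 0.0135). TMED5 against TMED7 changed by -1.39 ± 0.18 and TMED3 against TMED5 by -0.91 ± 0.097, with the same exact p. These 3 genes of the subfamily thus had 3 different responses, in the order TMED7, TMED5, TMED3. TMED1 and TMED6, from the wider list, were in no tested pair. Neither was called in edgeR's test (log2 fold changes -0.26 and 0.50). Between the 2 SEC24 subfamilies, SEC24B against SEC24D changed by -1.28 ± 0.28, SEC24B against SEC24C by -1.20 ± 0.30 and SEC24A against SEC24D by -0.77 ± 0.19, each with an exact p of 0.00794. SEC24A against SEC24C changed by -0.69 ± 0.25 (exact p = 0.0318, adjusted p = 0.045), a call lost without control replicates 1, 2 or 5 or tunicamycin replicates 1, 3, 4 or 5, where the adjusted p of the exact test was 0.0562 to 0.0787. Within the subfamilies no change was called: SEC24C against SEC24D differed by -0.085 ± 0.27 (exact p = 0.714), and SEC24A against SEC24B by 0.51 ± 0.25 (exact p = 0.0873, adjusted p = 0.106), which passed without control replicate 1 (adjusted p = 0.0337). As a share of all SEC24 counts, SEC24B went from 17.9% ± 3.83 to 9.26% ± 2.07 and SEC24D from 31.9% ± 5.46 to 40% ± 5.15 (SD, n = 5 each).

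Other families also shifted. KDELR1 against KDELR2 changed by -0.67 ± 0.14 (exact p = 0.00794, adjusted p = 0.0135), and KDELR2 went from 12.9% ± 1.82 to 18.9% ± 2.03 of all KDEL receptor counts (SD, n = 5 each). KDELR2 gained against KDELR3 by 0.43 ± 0.12 (exact p = 0.0159, adjusted p = 0.0245), which missed the threshold without control replicates 1, 2, 3 or 5 (adjusted p of 0.0519 to 0.0613 in the exact test) and after thinning (0.0562). COPG1 gained against COPG2 by 1.12 ± 0.24, ARF4 gained against ARF1 (change of the ratio of ARF1 to ARF4 -0.58 ± 0.094) and SAR1B against SAR1A (ratio of SAR1A to SAR1B -0.53 ± 0.13), each with an exact p of 0.00794 and an adjusted p of 0.0135. SEC23A against SEC23B (-0.39 ± 0.19, exact p = 0.103, adjusted p = 0.117) was lower in tunicamycin in all 5 replicate pairs but was not called, except without control replicate 1 (adjusted p = 0.0245). KDELR1 against KDELR3 (-0.24 ± 0.10, exact p = 0.0476, adjusted p = 0.0623) was called only with a pseudocount of 5 (adjusted p = 0.0415 in the exact test), and LMAN1 against LMAN2 (0.13 ± 0.12, exact p = 0.325, adjusted p = 0.346) was not called.

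**Figure D3:**
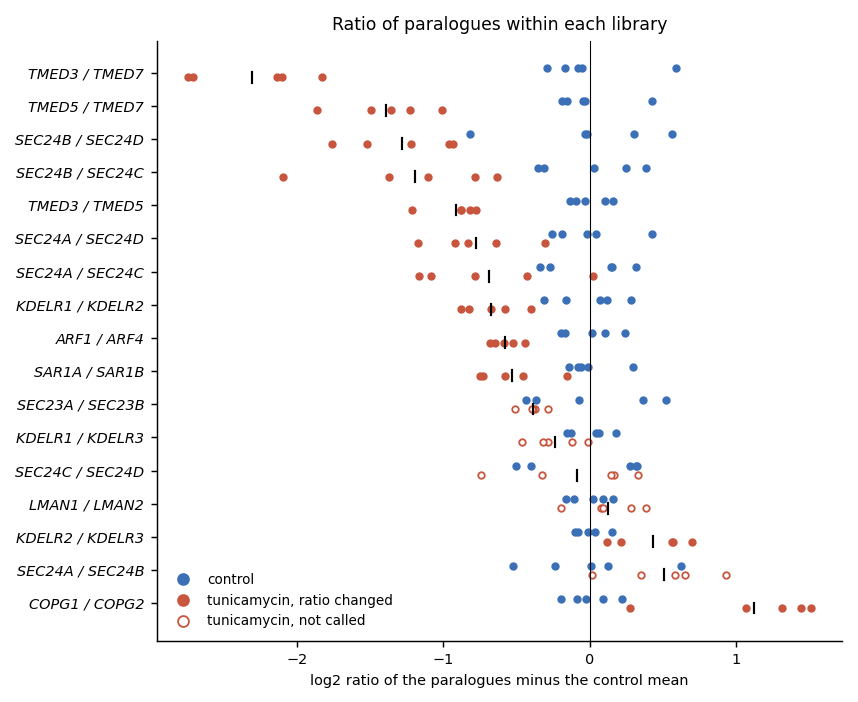
Log2 ratio of the counts of 2 paralogues in each library minus the control mean (x axis) for 17 pairs, with control libraries in blue, tunicamycin libraries in red (open where the ratio was not called as changed) and the tunicamycin mean as a black line. The ratio of TMED3 to TMED7 lies farthest to the left (-2.30).

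Further genes of the early secretory pathway, such as TRAPP tethers, ERGIC and YIP proteins and ARF GTPase-activating proteins, were taken from a list of 61. Of the 58 that were tested 18 rose and 4 fell (31% and 6.9%), with a median log2 fold change of 0.18. TRAPPC8 (1.01), CNIH1 (0.85), a cargo adaptor of COPII, YIPF4 (0.84) and TRAPPC11 (0.76) rose most by the rule for named genes, and ERGIC1 (-0.76), YIF1A (-0.42), TRAPPC2L (-0.42) and LMAN2L (-0.40), a relative of LMAN2, fell. Coats and carriers that act after the Golgi (clathrin, AP complexes, GGA proteins, retromer and exocyst, 41 genes, all tested) had a median log2 fold change of -0.055. Of these 41 genes, 4 rose and 9 fell (9.76% and 21.95%). Over all 12733 tested genes, 17.6% were called higher and 16.6% lower, so the share of the 41 that fell was not far from that of all genes. AP1M2, a subunit of the AP-1 clathrin adaptor complex, fell most (-1.38), followed by AP1S1 (-0.94) and AP1M1 (-0.57) of the same complex and GGA3 (-0.44). The complex did not fall throughout. AP1G1 (-0.44) and AP1B1 (-0.22) were also called lower, AP1B1 in only 1 of the 10 fits that left out a library. AP1G2 (0.047), AP1S2 (0.14) and AP1S3 (0.073) were not called. ARF6 (0.93), AP3S1 (0.76), AP3D1 (0.54) and VPS26A (0.38) rose. The lists were chosen with earlier results of these data known, and the difference between them was not tested.

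Reads from the opposite strand could enter some of these counts if counting did not use the strand. The authors ran their pipeline at its defaults and named no strand option. In the last 500 bases of the transcript, where 3′ libraries collect reads, 7 of the 44 genes overlapped an exon of another gene on the opposite strand (GENCODE, GRCh38), and 0 one on the same strand. The partners were MRPS22 for COPB2, MEST for COPG2, DDX17 for KDELR3, ABHD1 for PREB, CEP68 for RAB1A and 2 genes outside the count table for COPG1 and SEC24C. The overlap covered all 500 of these bases in COPB2 and in SEC24C, so these 2 genes were the most exposed. It covered 228 bases in COPG2, 151 in RAB1A, 57 in PREB and 21 in COPG1. Over all 10 libraries MEST had 715 counts and COPG2 286, and MRPS22 1715 and COPB2 4686. CEP68 had 747 and RAB1A 8198. DDX17 had 14211 and KDELR3 996, with 10 bases shared. The part of such reads in the counts was not tested.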

How the data were processed

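HepG2 cells were sequenced in 10 libraries of 3′ mRNA fragments (QuantSeq), 5 per condition. The authors processed the reads with the nf-core RNA-Seq pipeline on hg19 with Ensembl transcripts and deposited raw counts per gene without normalization. The pipeline was run at its defaults, and the authors named neither the counting program nor a strand option. Each of the 10 columns was matched to its library by name.

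Genes were filtered with filterByExpr (minimum count 2, minimum total 10) and tested in R 4.3.3 with the quasi-likelihood test of edgeR 4.0.16, after TMM scaling and with condition as the only term. P-values were adjusted over all 12733 tested genes by the Benjamini-Hochberg method at 0.05. A standard error is the absolute log2 fold change over the square root of F. Ratios of paralogues used counts plus 0.5 and pairs with a mean of at least 10 counts per gene. The genes given with all values are those with the largest and smallest change in each role and those of changed pairs, and others of the 44 are given by summary; genes of the 2 further lists are named for the 4 highest and 4 lowest changes among called genes with at least 20 normalized counts and the same direction in all pairs. Members and lists were chosen with earlier results of these data known.

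Per the series' design the replicates were run on separate days, and libraries with the same number were taken as the same day, which the labels do not state for each library. The correlation of deviations between same-numbered libraries, over 10741 genes, was 0.319, 0.00391, 0.0457, 0.134 and 0.109. Libraries of a condition differed by more than sampling noise (chi-square per degree of freedom of 3.79 to 27.9, largest between tunicamycin replicates 1 and 4). The test was checked on simulated data. Alternatives were DESeq2 1.42.0, its size factors, library size only, other filters, the replicate block, thinning and leaving out each library. Promoters come from RefSeq (GRCh38.p14) and gene positions from GENCODE (GRCh38), matched by symbol and by Ensembl identifier, and no coordinate of hg19 is given.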

Additional observations from a re-analysis of the deposited data

Results flagged for a closer look

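In 8 of 86 groups of 5 libraries, taking each of the 43 tested genes in each condition, 1 library lay far from the other 4 by Dixon's criterion, where chance alone gives about 4.3. As normalized counts, with the lowest and highest of the remaining 4 libraries in parentheses, these were 441 for SAR1A in control replicate 5 (394 to 407), 625 for SEC13 in tunicamycin replicate 1 (490.4 to 498), 85.2 for TMED7 in control replicate 1 (128 to 143), 374 for COPB2 in tunicamycin replicate 4 (476 to 514), 226 for COPE in tunicamycin replicate 1 (138 to 155), 320.1 for COPG1 in tunicamycin replicate 4 (238 to 258), 267 for COPZ1 in tunicamycin replicate 4 (222 to 235) and 603 for YKT6 in tunicamycin replicate 2 (639 to 654). Tunicamycin replicate 4 held 3 of them and tunicamycin replicate 1 held 2. Of the 10 libraries, the former had the highest share of mitochondrial counts (28.8%) and the latter the lowest (18.3%). What sets these libraries apart was not tested.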

How the results depend on the processing

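Of 43 tested transport genes 30 rose in the edgeR fit, and the number was 26 to 31 over the other settings and 28 to 31 with each library left out. The number that fell, 2, was 4 when total counts alone set the scale and with the default minimums of the filter, and 1 with no filter and after thinning to the smallest library, and 1 to 3 with each library left out. The replicate block in edgeR gave 31 higher and 3 lower genes and called COPG2 and GOSR2 in addition; it changed no other call of these genes. In DESeq2 the block gave 29 higher and 2 lower genes, the numbers DESeq2 gave without it, and called neither COPG2 nor GOSR2, nor STX5. All genes called numbered 4353 in edgeR and 4811 with the block, but 4318 in DESeq2 and 3896 with the block, and 3806 to 4488 with each library left out. Called genes together, 32, were 29 to 33 with a library left out, and the 12 changed paralogue ratios were 10 to 12, 13 with a pseudocount of 5 and 11 after thinning. With swaps within replicate pairs alone, a replicate block chosen after seeing the data, 0 ratios passed, also at an unadjusted p of 0.05, since 0.0625 is the smallest p that 5 pairs allow, and 13 of 17 ratios reached it. No call reversed its direction. Calls that some setting removed were those of SAR1B, SEC13, LMAN2, KDELR1 and STX5, and calls that some setting added were those of TMED3, COPG2 and GOSR2. Totals of 2234682 to 5029864 counts per library limit genes with few counts such as BET1 and COPG2.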
